A study of Mus musculus with 8 samples.

Results

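The miR-322, miR-503, miR-351, miR-542 and miR-450 cluster is a group of miRNA hairpins on the mouse X chromosome that are usually regarded as products of one primary transcript. Its members here are 10 mature miRNAs chosen by name, namely mmu-miR-322-5p, mmu-miR-322-3p, mmu-miR-503-5p, mmu-miR-503-3p, mmu-miR-351-5p, mmu-miR-351-3p, mmu-miR-542-5p, mmu-miR-542-3p, mmu-miR-450a-5p and mmu-miR-450b-5p, which are written below without the prefix for mouse. All 10 were listed among the 1966 names of the count table, all 10 had at least 1 count, and 9 passed the filter for testing. The cells were primary articular chondrocytes isolated from hip cartilage (femoral heads) of wild-type mice aged 3 weeks, a cell type that makes and maintains joint cartilage. They were exposed for 24 h to vehicle (4 libraries) or to 1 ng/ml IL-1β (4 libraries), a proinflammatory cytokine that activates NF-κB, and the small RNAs were sequenced. Neither the sex of the mice nor the number of animals behind a library was given, and nothing stated that the replicates were separate cultures, so p-values measure the spread between these libraries, which may be technical.

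A miRNA guides the silencing complex to mRNAs that pair with its seed (bases 2 to 8), and each hairpin can give a miRNA from its 5p and its 3p arm. miR-322-5p, the mouse counterpart of human miR-424, and miR-503-5p belong to the extended miR-15/16 family, which is known for restraining the cell cycle through targets such as cyclin D1 and Cdc25a. miR-351-5p carries the seed of miR-125, a family linked to differentiation and to haematopoiesis, and miR-542-3p is known as a regulator of survivin. The miR-322 and miR-503 pair is induced when myoblasts leave the cell cycle and differentiate.

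The mature sequences of the 10 members are shown first because the seeds decide to which family each arm belongs. All 10 were matched by name in RefSeq (GRCm38), and capitals mark the seed.
miR-322-5p: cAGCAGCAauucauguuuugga
miR-322-3p: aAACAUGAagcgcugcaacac
miR-503-5p: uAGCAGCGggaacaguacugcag
miR-503-3p: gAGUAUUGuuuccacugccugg
miR-351-5p: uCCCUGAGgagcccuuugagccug
miR-351-3p: gGUCAAGAggcgccugggaac
miR-542-5p: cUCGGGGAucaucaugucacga
miR-542-3p: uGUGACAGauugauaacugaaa
miR-450a-5p: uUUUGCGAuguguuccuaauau
miR-450b-5p: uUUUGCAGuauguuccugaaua

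No pair of members shared a whole seed. miR-322-5p and miR-503-5p were identical at bases 2 to 7 (AGCAGC) and parted at the last base of the seed, and over 22 aligned bases they agreed at 11. Among the 1675 of the 1966 names matched to a RefSeq sequence, the seed of miR-322-5p was shared by 9 others, of which miR-15a-5p, miR-15b-5p, miR-16-5p, miR-195a-5p and miR-497a-5p, 5 in all, were tested. That of miR-351-5p was shared by 4 others, of which miR-125a-5p and miR-125b-5p were tested. miR-503-5p, miR-322-3p, miR-503-3p, miR-351-3p, miR-542-3p, miR-450a-5p and miR-450b-5p shared their seed with no other of these 1675 names. Of the 7 tested relatives, miR-16-5p, miR-15a-5p, miR-497a-5p and both miR-125 miRNAs are shown to let the stretch beyond the seed be compared, in which miR-351-5p differs from both miR-125 miRNAs.
miR-16-5p: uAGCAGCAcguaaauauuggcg
miR-15a-5p: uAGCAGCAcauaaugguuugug
miR-497a-5p: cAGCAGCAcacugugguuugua
miR-125a-5p: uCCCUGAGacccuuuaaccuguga
miR-125b-5p: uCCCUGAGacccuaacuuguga

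Aligned without gaps from the first base, miR-351-5p was identical to miR-125a-5p at 10 of 24 bases and to miR-125b-5p at 10 of 22. miR-450a-5p and miR-450b-5p were identical at 15 of 22 bases.

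The members are encoded by 7 hairpins within 6353 bases of the X chromosome (chrX:53047997-53054349, minus strand, GRCm38). In the direction of transcription these are Mir322 (chrX:53054255-53054349), Mir503 (chrX:53053984-53054054), Mir351 (chrX:53053255-53053353), Mir542 (chrX:53049403-53049487), Mir450-2 (chrX:53048299-53048367), Mir450-1 (chrX:53048154-53048244) and Mir450b (chrX:53047997-53048078). Mir322 and Mir503 were 200 bases apart, Mir503 and Mir351 630 bases, and Mir351 and Mir542 3767 bases. None of the 7 hairpins overlapped another gene of GENCODE vM21. The long non-coding RNA gene Gm28730 lay in the gap between Mir351 and Mir542, and the non-coding gene C430049B03Rik lay upstream of Mir322, both on the same strand. The mature miR-450a-5p sequence occurs in both Mir450-1 and Mir450-2, and its counts do not tell which of them was the source.

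**Figure D1:**
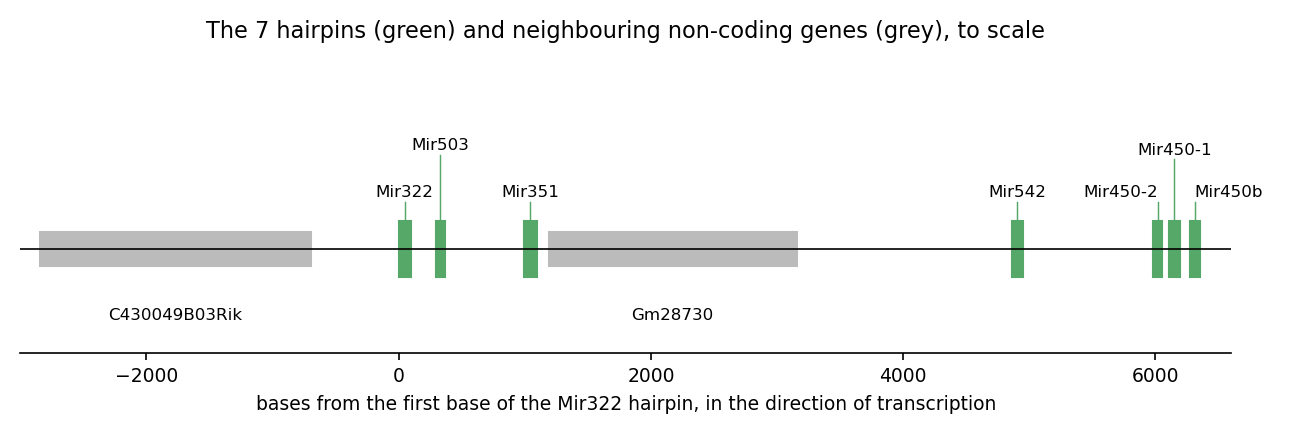
Map of the cluster to scale, with the distance in bases from the first base of the Mir322 hairpin on the x axis, the 7 hairpins in green and the neighbouring non-coding genes in grey. Mir322, Mir503 and Mir351 sit together within 1095 bases, and Mir542 and the 3 miR-450 hairpins within 1491 bases, with Gm28730 between them.

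Library totals ranged from 616475 to 1568367 counts, so that 1 count was worth 0.638 to 1.62 CPM (counts per 1000000) and the 3 counts that a library at 0 allows were worth 1.91 to 4.87 CPM. These limits cover counting error only. The cells carried the miRNAs of cartilage: the arms of miR-140 and miR-455, all 4 of them tested, took 15.6% to 16.8% of counts with vehicle and 12.4% to 15.3% with IL-1β. Of the markers of other cells, all 4 muscle miRNAs were at 0 in every library, as were miR-142a-3p, miR-223-3p and miR-451a of blood cells, and the list of 6 blood miRNAs, nearly all of it miR-150-5p, averaged 0.00538% of counts in the vehicle group against 0.00355% in the IL-1β group. The endothelial list of 2 held 8 counts and the epithelial list of 5 held 7, all of them with IL-1β. The part of these shifts in the values of the cluster was not tested, and in bulk libraries fewer cells of a type cannot be told apart from less RNA per cell. IL-1β replicate 4 stood apart: across the 195 miRNAs that averaged 50 counts or more, the SD of its log2 deviations from its group was 0.40, against 0.15 to 0.23 in the other 7 libraries. Fold changes of members and seed relatives that it moved by over 1.5 times are given with and without it, or as a range over the libraries left out.

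The cluster was led by a single miRNA. The 10 members took 1.66% to 1.83% of all counts with vehicle and 1.601% to 1.99% with IL-1β, and miR-351-5p alone supplied 93.6% of these counts (130900 of 139858). At a mean of 16524 normalized CPM (CPM computed with TMM-scaled totals) over the 8 libraries it was the 11th most abundant miRNA of the table. miR-322-3p ranked 76th at 758 normalized CPM, and was followed by miR-542-5p at 158 and miR-503-3p at 122. The 3 next members, miR-322-5p, miR-351-3p and miR-450a-5p, had 31.7, 27.9 and 21.1 normalized CPM. At the limit of detection were miR-450b-5p, miR-542-3p and miR-503-5p, with 3.01, 2.49 and 1.02. Per base of mature length miR-351-5p had 689 normalized CPM per nt and miR-322-3p 36.1. The order was the same on that scale, but the lengths (21 to 24 nt) were too alike to change it. This is an order of counts, which need not be that of molar amounts, because ligation during library preparation can favor some sequences.

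Some neighbours in this order were well apart and others were not. miR-351-5p was 21.8-fold above miR-322-3p, miR-322-3p 4.80-fold above miR-542-5p and miR-503-3p 3.86-fold above miR-322-5p, with no overlap between the libraries. miR-450a-5p was above miR-450b-5p in all 8 libraries, again with no overlap, but no fold is given because miR-450b-5p was at the limit of detection. miR-542-5p exceeded miR-503-3p in each of the 8 libraries, although their ranges overlapped. miR-322-5p exceeded miR-351-3p in 4 of 8 libraries, and miR-450b-5p exceeded miR-542-3p in 4 of 8, so these neighbours were not separated. miR-503-5p was at 0 in 4 libraries and never above 5 counts.

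**Figure D2:**
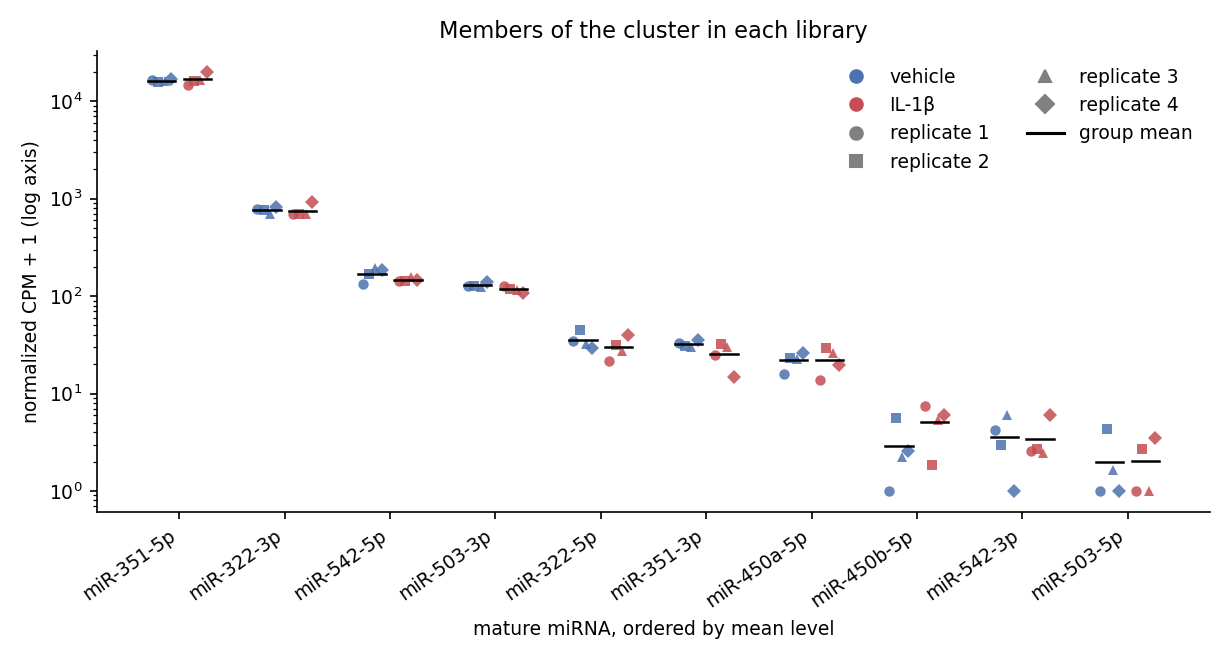
Normalized CPM + 1 (log axis) of each member in each library, with vehicle in blue, IL-1β in red, a marker shape per replicate and a black line at the group mean. miR-351-5p lies between 14752 and 20071 normalized CPM in all 8 libraries, the other members reach at most 931, and the colors overlap for all 10 members.

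To determine whether the cluster responds to IL-1β, the abundance of each member was compared between IL-1β and vehicle libraries. None of the 9 tested members was called, either higher or lower, where a call required an adjusted p below 0.05 and an absolute log2 fold change above 0.3 in the edgeR fit to all 564 tested miRNAs. In that fit 1.95% of all tested miRNAs were called, 1.42% as higher and 0.532% as lower. None of the 9 had an unadjusted p under 0.05 with edgeR, and DESeq2 also called none of them and gave none an unadjusted p under 0.05. In the edgeR fit 63 of all 564 tested miRNAs had such a p, so 0 of 9 was near the background. For 0 of the 9 did the libraries of the groups fail to overlap, against 7.62% of all tested miRNAs. Of the 9 log2 fold changes, 6 were below 0 and 3 above it, with a median of -0.14 against 0.0063 over all tested miRNAs.

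miR-351-5p, the most abundant member, measured 16399, 15569, 16136 and 16791 normalized CPM in vehicle replicates 1 to 4. In IL-1β replicates 1 to 4 it measured 14752, 16000, 16477 and 20071 normalized CPM. In the IL-1β group, replicate 1 lay below all vehicle libraries, replicates 2 and 3 lay within their range and replicate 4 lay above them all. The mean was 16224 ± 513 in the vehicle group and 16825 ± 2283 in the IL-1β group (SD, n = 4), and the log2 fold change was 0.053 (edgeR, SE 0.0895, adjusted p = 0.871). Its 95% interval, from -0.13 to 0.24, corresponds to a fold change between 0.912 and 1.18. Without IL-1β replicate 4 the log2 fold change was -0.043, so the sign of this small value rested on 1 library.

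miR-322-3p, the partner of the arm with the miR-15/16 seed, measured 780, 757, 695 and 816 normalized CPM in vehicle replicates 1 to 4. In IL-1β replicates 1 to 4 it measured 702, 693, 690 and 931 normalized CPM. Replicates 1 to 3 of the IL-1β group were nearly equal and lay near the lowest vehicle library, whereas replicate 4 was the highest of all 8. The log2 fold change was -0.013 (edgeR, SE 0.0994, adjusted p = 0.992), with a 95% interval of -0.22 to 0.19. Without IL-1β replicate 4 it was -0.13.

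miR-322-5p, the arm known for its targets in the cell cycle, measured 33.9, 44.0, 31.2 and 28.0 normalized CPM in vehicle replicates 1 to 4, from 18 to 66 counts. With IL-1β, replicates 1 to 4 gave 20.8, 30.3, 26.3 and 38.9 normalized CPM, from 13 to 36 counts. The groups overlapped, with the lowest value in IL-1β replicate 1 and the highest in vehicle replicate 2. The log2 fold change was -0.25 (edgeR, SE 0.215, adjusted p = 0.753). Its 95% interval of -0.69 to 0.20 leaves room for a fold change between 0.620 and 1.15. The value moved with single libraries, to -0.40 without IL-1β replicate 4 (edgeR adjusted p = 0.484) and to -0.082 without vehicle replicate 2 (edgeR adjusted p = 0.937).

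miR-503-3p measured 125.1, 124.8, 124.3 and 138.6 normalized CPM in vehicle replicates 1 to 4 and 126.4, 116.3, 115.4 and 106.5 in IL-1β replicates 1 to 4. Of the IL-1β libraries, 3 lay below all vehicle libraries, and replicate 1 lay among them. The mean was 128 ± 6.95 in the vehicle group and 116 ± 8.11 in the IL-1β group (SD, n = 4), and the log2 fold change was -0.14 (edgeR, SE 0.117, adjusted p = 0.753). The other arm, miR-503-5p, had 0, 5, 1 and 0 counts with vehicle and 0, 2, 0 and 2 with IL-1β. It was the member that failed the filter, and no fold change is given because both groups were at the limit of detection.

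miR-542-5p had the smallest unadjusted p of the members. It measured 131, 169, 192 and 184 normalized CPM in vehicle replicates 1 to 4, and 142, 143, 155 and 147 in IL-1β replicates 1 to 4. The IL-1β libraries lay close together, below 3 of the 4 vehicle libraries and above vehicle replicate 1. The log2 fold change was -0.21 (edgeR, SE 0.122, unadjusted p = 0.101 and adjusted p = 0.650). Without vehicle replicate 1 it was -0.31, with an unadjusted p of 0.0183 and an adjusted p of 0.282 in edgeR. Without vehicle replicate 3 it was -0.13, with an unadjusted p of 0.327 and an adjusted p of 0.860. Its adjusted p ranged from 0.282 to 0.860 over the alternatives.

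The rest of the members were measured with little precision. miR-351-3p measured 31.8, 30.0, 28.7 and 34.3 normalized CPM with vehicle and 24.0, 31.2, 29.2 and 13.8 with IL-1β (replicates 1 to 4). Its lowest value was in IL-1β replicate 4, the library in which its partner miR-351-5p was highest, and its log2 fold change was -0.30 (edgeR, SE 0.228, adjusted p = 0.744) with that library and -0.094 without it. Without IL-1β replicate 2 it was -0.48 (edgeR adjusted p = 0.587). miR-450a-5p, at 14.8 to 24.9 normalized CPM with vehicle and 12.8 to 28.7 with IL-1β, had a log2 fold change of 0.086 (edgeR, SE 0.258, adjusted p = 0.963).

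miR-450b-5p (7 counts at most in a library) and miR-542-3p (8 at most) had log2 fold changes of 0.80 and -0.25 with SEs of 0.760 and 0.724. Their 95% intervals ran from -0.77 to 2.37 and from -1.74 to 1.25, so that a change of severalfold was not detectable at this depth. The value of miR-450b-5p ran from 0.48 without vehicle replicate 1 to 1.85 without vehicle replicate 2 (edgeR adjusted p = 0.512). Among other products of the locus, miR-450b-3p had 11 counts in all, miR-450a-2-3p had 2 and miR-450a-1-3p had none. miR-450b-3p, the only one tested, had a log2 fold change of 0.25 (edgeR, SE 1.01, adjusted p = 0.985).

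**Figure D3:**
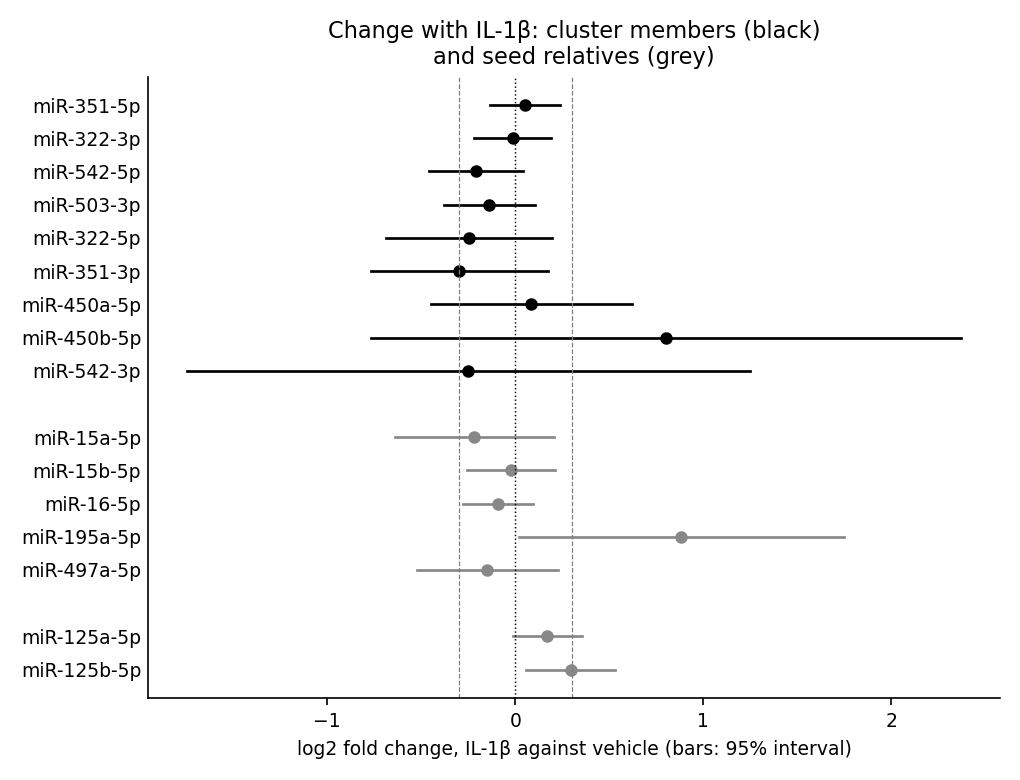
Log2 fold change (IL-1β against vehicle, x axis) with its 95% interval for the 9 tested members in black and for their seed relatives in grey, with dashed lines at -0.3 and 0.3. The intervals of all 9 members include 0, and those of miR-351-5p and miR-322-3p lie within the dashed lines.

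The 2 arms of a hairpin are cut from the same precursor. Their ratio within a library, like any ratio of counts within a library, does not depend on scaling between libraries. The dominant arm differed along the cluster: it was the 3p arm for miR-322 and miR-503, and the 5p arm for miR-351 and miR-542, in all 8 libraries. By counts, arms that carry the miR-15/16 type seed were therefore the minor ones, and the arm with the miR-125 seed was the major one. Ligation can favor some sequences, so a ratio of counts between arms need not be that of molar amounts. The hairpins of Mir322, Mir503 and Mir542 are shown to place the arms, which are in capitals with the 5p arm first. In Mir322 and Mir503 the first capital block, which begins with the miR-15/16 type seed, was the one with fewer counts.
Mir322: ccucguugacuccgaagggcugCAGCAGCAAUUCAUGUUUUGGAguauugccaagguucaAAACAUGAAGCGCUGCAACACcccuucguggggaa
Mir503: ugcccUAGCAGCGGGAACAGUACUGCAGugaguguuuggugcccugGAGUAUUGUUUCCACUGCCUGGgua
Mir542: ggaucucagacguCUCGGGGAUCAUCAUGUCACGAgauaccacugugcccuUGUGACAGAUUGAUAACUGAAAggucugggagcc

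For miR-322, 5983 counts fell on the 3p arm and 264 on the 5p arm, a ratio of 22.7. The 5p arm held 4.17%, 5.50%, 4.30% and 3.32% of the counts of both arms in vehicle replicates 1 to 4, and 2.88%, 4.20%, 3.67% and 4.01% in IL-1β replicates 1 to 4. The ranges overlapped, and the Wilson 95% intervals of all 8 libraries lay between 1.69% and 6.93%. For miR-503, 974 counts fell on the 3p arm and 10 on the 5p arm, a ratio of 97.4. This ratio is imprecise, because the 5p arm was at the limit of detection, with 5 of its 10 counts in vehicle replicate 2. A library at 0 for the 5p arm allowed a share of up to 2.54% to 3.80%. For miR-351, 130900 counts fell on the 5p arm and 226 on the 3p arm, a ratio of 579, the most uneven of the 4. For miR-542, 1285 counts fell on the 5p arm and 22 on the 3p arm, a ratio of 58.4 that is also imprecise, as the 3p arm was at the limit of detection.

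Uneven arms were common in these libraries. Among 164 hairpins with at least 10 counts from both arms together in every library, the dominant arm held a median of 98.6% of counts, and it held over 90% in 131 of them (79.9%). It was the 5p arm in 84 and the 3p arm in 80. The 5p share was 100% in both groups for some hairpins, such as miR-199a and miR-199b. Whether such shares reflect reads that map to several places was not tested. Of the miR-15/16 seed relatives, miR-15a and miR-15b had 97.6% and 99.1% of their counts on the 5p arm, which bears the seed, and miR-497a had 623 counts there and none on its 3p arm, whereas miR-195a had 69 counts on each arm.

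The arm shares did not pass a test for a difference with IL-1β. The mean 5p share of miR-322 was 4.32% ± 0.895 in the vehicle group and 3.69% ± 0.582 in the IL-1β group (SD, n = 4, exact two-sided permutation p = 0.343). For miR-351 it was 99.81% ± 0.0107 and 99.85% ± 0.0562 (SD, n = 4, exact permutation p = 0.171), with the highest share in IL-1β replicate 4 at 99.93%. For miR-503 and miR-542 the exact permutation p was 1. Adjusted over all 164 hairpins each p was 1, and 0% of the hairpins passed after adjustment, which the smallest p of 4 against 4 libraries (0.0286) does not allow unless many do. Before adjustment 2.44% of the hairpins had an exact permutation p under 0.05, none of them among these 4.

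**Figure D4:**
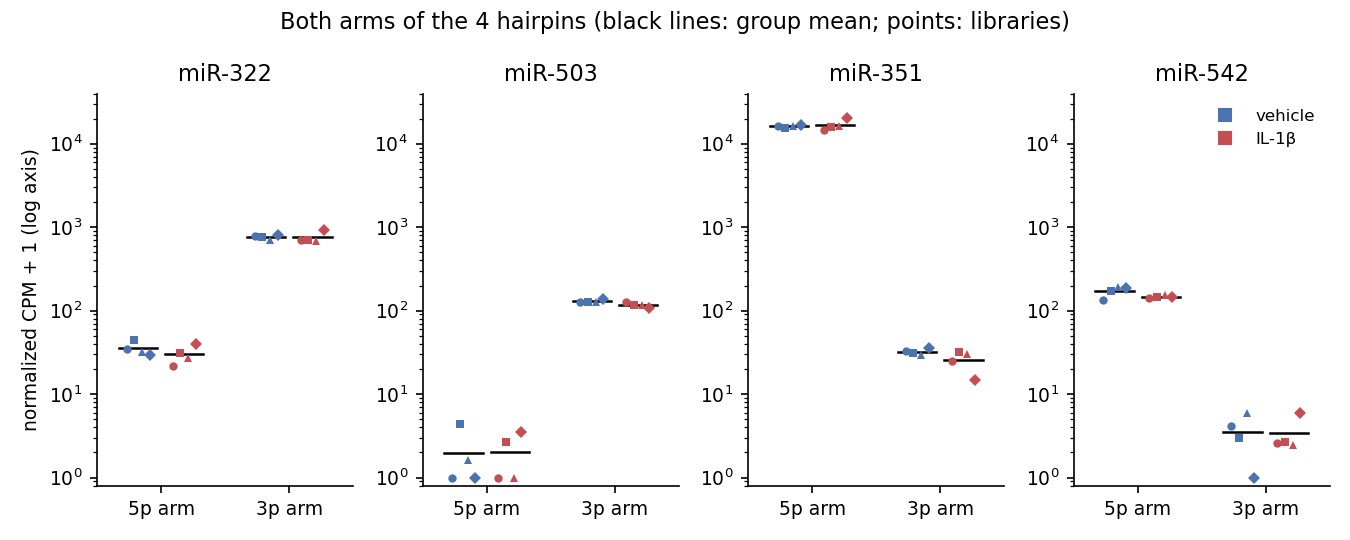
Normalized CPM + 1 (log axis) of the 5p and 3p arms of miR-322, miR-503, miR-351 and miR-542, with vehicle libraries in blue, IL-1β libraries in red and black lines at the group means. The 3p arm is the higher one for miR-322 and miR-503 and the 5p arm for miR-351 and miR-542, with the blue and red points side by side.

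The products of the transcript were next compared with each other within libraries. miR-322-3p amounted to 4.76, 4.86, 4.31 and 4.86 counts per 100 counts of miR-351-5p in vehicle replicates 1 to 4, and to 4.76, 4.33, 4.19 and 4.64 in IL-1β replicates 1 to 4. This ratio thus stayed within a narrow range in both groups, IL-1β replicate 4 included, in which both miRNAs were high. miR-503-3p amounted to 16.03 to 17.90 counts per 100 of miR-322-3p with vehicle and to 16.74 to 17.995 in IL-1β replicates 1 to 3, but to 11.4 in IL-1β replicate 4. miR-542-5p, which lies farther downstream, amounted to 16.8 to 27.7 per 100 of miR-322-3p with vehicle and 15.7 to 22.5 with IL-1β, with the lowest value again in IL-1β replicate 4. The products of neighbouring hairpins did therefore not all follow each other in that library.

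The spread between libraries differed among the 4 most abundant members. In the vehicle libraries the coefficient of variation was 3.16% for miR-351-5p, 6.70% for miR-322-3p, 15.9% for miR-542-5p and 5.42% for miR-503-3p. Counting error alone would give 0.761%, 3.51%, 7.54% and 8.55%. In the IL-1β libraries it was 13.6%, 15.7%, 3.89% and 6.99%, against 0.875%, 4.13%, 9.31% and 10.5% from counting. The spread of miR-503-3p in both groups and of miR-542-5p with IL-1β was thus below counting error, so no difference between libraries was resolved there. Single libraries set much of the spread of miR-351-5p and miR-322-3p with IL-1β and of miR-542-5p with vehicle. Without IL-1β replicate 4 the coefficient of variation in the IL-1β group was 5.66% for miR-351-5p and 0.940% for miR-322-3p. The latter was below its vehicle value and below counting error. In the vehicle group the coefficient of variation of miR-542-5p was 6.57% without replicate 1. That of miR-503-3p, already below counting error with all 4 libraries, was 0.320% without replicate 4.

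Because miRNAs with one seed can share targets, the members were placed within their seed families. In the miR-15/16 type family, miR-322-5p and miR-503-5p together supplied 274 of 11723 counts, and 8777 came from miR-16-5p. Their share was 2.47%, 2.96%, 2.00% and 2.04% in vehicle replicates 1 to 4 and 1.44%, 2.44%, 1.97% and 2.69% in IL-1β replicates 1 to 4. The groups overlapped, and the mean was 2.37% ± 0.449 and 2.14% ± 0.552 (SD, n = 4). The table lists 44 nt for miR-16-5p, the length of both of its loci together, so its count may be that of 2 loci. For miR-450a-5p, and for miR-125b-5p of the miR-125 family below, the listed length is 22 nt. Each of these also has 2 loci, so their counts may be those of 1 locus.

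Of the 5 relatives of the miR-15/16 seed, edgeR and DESeq2 each called 0, with 1 (edgeR) and 0 (DESeq2) at an unadjusted p under 0.05, which 63 of all 564 tested miRNAs had in edgeR. miR-16-5p had 1114 ± 112 normalized CPM in the vehicle group and 1048 ± 84.7 in the IL-1β group (SD, n = 4), and its log2 fold change was -0.090 (edgeR, SE 0.0908, adjusted p = 0.760). miR-195a-5p, with 2 to 18 counts in a library, was the 1 below that limit in edgeR, and it had a log2 fold change of 0.88 (edgeR, SE 0.420, adjusted p = 0.427). The log2 fold changes of miR-15a-5p, miR-15b-5p and miR-497a-5p were -0.22, -0.023 and -0.15. Without IL-1β replicate 4 those of miR-16-5p, miR-15b-5p and miR-497a-5p were -0.15, -0.13 and 0.048, the last with its sign reversed.

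In the miR-125 family, miR-351-5p supplied 130900 of 781389 counts. Its share was 17.4%, 17.7%, 17.5% and 17.4% in vehicle replicates 1 to 4 and 15.5%, 16.4%, 16.5% and 15.004% in IL-1β replicates 1 to 4. Every IL-1β library was thus below every vehicle library, and the Wilson 95% intervals, the lowest of which reached down to 17.1% with vehicle and the highest up to 16.8% with IL-1β, did not meet. The mean was 17.5% ± 0.137 in the vehicle group and 15.8% ± 0.710 in the IL-1β group (SD, n = 4), and 16.1% ± 0.542 (SD, n = 3) without IL-1β replicate 4. This share was a description for which no test had been set, and these intervals cover counting error only. How often such shares separate was not computed, and among the levels of single tested miRNAs all IL-1β libraries lay below all vehicle libraries for 3.01%.

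The other part of this ratio was the level of the relatives. miR-125b-5p measured 37463, 33982, 34061 and 38400 normalized CPM in vehicle replicates 1 to 4 and 37476, 39423, 41063 and 58673 in IL-1β replicates 1 to 4, and its log2 fold change was 0.30 (edgeR, SE 0.113, adjusted p = 0.232). miR-125a-5p measured 40374, 38508, 42153 and 41420 with vehicle and 42997, 42409, 42368 and 55035 with IL-1β, and its log2 fold change was 0.17 (edgeR, SE 0.0895, adjusted p = 0.534). Neither was called by edgeR or DESeq2, and in each tool 1 of the pair (miR-125b-5p in edgeR) had an unadjusted p under 0.05, against 63 of 564 over all tested miRNAs in edgeR. The libraries of miR-125a-5p did not overlap between groups, with IL-1β higher, which held for 4.61% of all tested miRNAs. IL-1β replicate 4 was the highest library for both, as it was for miR-351-5p, and without it the log2 fold changes were 0.13 for miR-125b-5p (edgeR adjusted p = 0.285) and 0.069 for miR-125a-5p (edgeR adjusted p = 0.677).

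**Figure D5:**
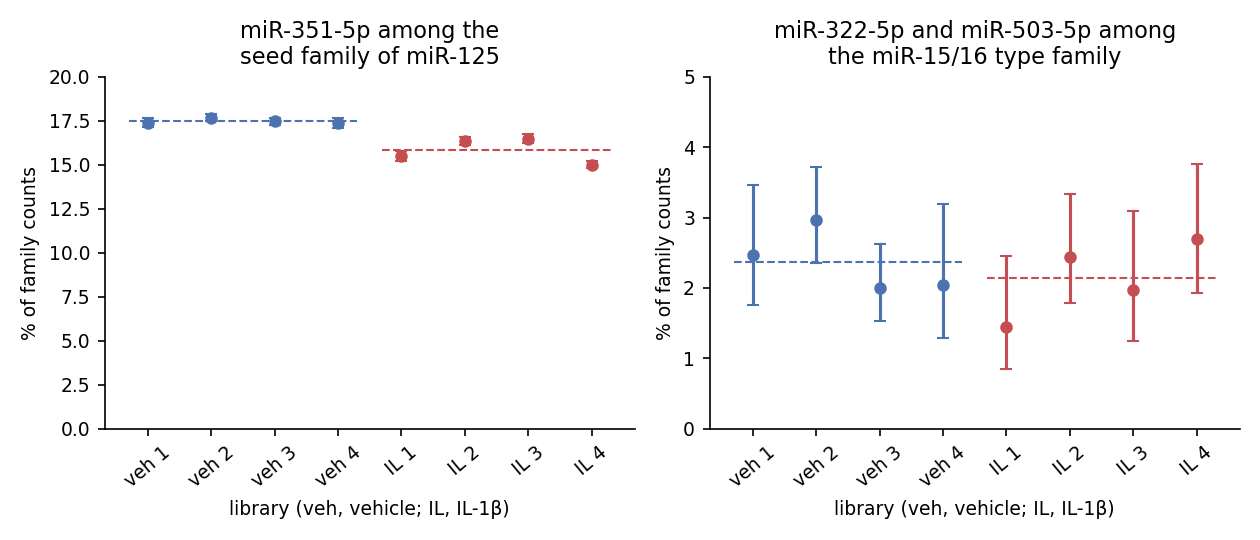
Share of the members in the counts of their seed family in each library (y axes in percent, Wilson 95% intervals, dashed lines at the group means), for miR-351-5p among miR-125 relatives on the left and for miR-322-5p with miR-503-5p among miR-15/16 relatives on the right. On the left the IL-1β libraries (15.004% to 16.5%) lie below the vehicle libraries (17.4% to 17.7%), and on the right the groups overlap.

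The miRNAs whose pattern over the 8 libraries was most like that of miR-351-5p were miR-151-5p, miR-26a-5p, miR-10a-5p, miR-100-5p and miR-99b-5p. Pearson's r of log2(normalized CPM + 1) was 0.944, 0.920, 0.915, 0.910 and 0.902, the highest among 191 candidates (the miRNAs averaging 50 counts or more, without the 4 members that did), and Spearman's rho was 0.881, 0.810, 0.452, 0.595 and 0.667. These values are a description, and they rested in part on the library that stood apart: without IL-1β replicate 4, r was 0.710, 0.745, 0.473, 0.497 and 0.615. Of the members, miR-322-3p had r = 0.824 (0.399 without that library), miR-542-5p r = -0.054 (0.286) and miR-503-3p r = -0.584 (0.115). Set among the 191 candidates by this measure, miR-322-3p would take rank 19, miR-542-5p rank 113 and miR-503-3p rank 160.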

How the data were processed

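Small RNA reads from 8 libraries (vehicle and IL-1β, 4 each, grouped and numbered by the sample labels) were processed by the authors, who trimmed them with cutadapt, aligned them to mm10 with STAR and counted them with featureCounts. The deposited values are read counts per mature miRNA name, and they were taken as raw. STAR is version 2.4.2a in the submitters' processing notes, whereas the methods name another. The methods also describe a batch correction with RUVseq. The deposited columns are whole numbers with differing totals, which does not settle whether it had been applied to them. Handling of reads that map to several places, and of strand, was not given in the sources used here, which limits counts of miR-450a-5p, miR-16-5p and miR-125b-5p, each with 2 loci.

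Counts were fitted with edgeR 4.0.16 in R 4.3.3 (TMM scaling, robust quasi-likelihood, group as the only term) for 564 miRNAs above 1 CPM in at least 4 libraries. P-values were adjusted by Benjamini and Hochberg over all of them, and calls used 0.05 and the log2 limit of 0.3 that the study applied to its miRNAs. The SE was the log2 fold change over the square root of F. Arm shares were compared by exact permutation (70 arrangements). Alternatives were other scalings, filters (fits without single libraries kept the same miRNAs), DESeq2 1.42.0, a replicate block, a surrogate variable (sva 3.50.0) and permutation tests. The members, lists and tests were chosen with earlier results of these data known. Named miRNAs were the members, their seed relatives, other products of the locus, marker lists and the 5 most alike in pattern. Values without IL-1β replicate 4 for the seed relatives, the family share and the likeness in pattern, and coefficients of variation without single libraries, were added after seeing the data.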

Additional observations from a re-analysis of the deposited data

Results flagged for a closer look

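The members, their seed relatives and the arm shares gave 42 groups of 4 libraries to examine. In 6 of them 1 library lay far from the other 3. Chance would give about 5% (2.1 groups) if the groups were independent. They were not, because they share libraries and the 5p share of miR-542 uses the counts of miR-542-3p, so no excess is read from this. Of the 6, 5 were IL-1β replicate 4, whose part in these values was not tested beyond leaving it out.

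miR-322-3p was at 931 normalized CPM in IL-1β replicate 4 against 690 to 702 in the others of its group. miR-542-3p was at 5.01 (4 counts) against 1.46 to 1.69, which left the 5p share of miR-542 at 96.7% against 98.8% to 99.1%. Among the seed relatives, miR-125a-5p was at 55035 normalized CPM in this library against 42368 to 42997, and miR-125b-5p at 58673 against 37476 to 41063. In vehicle replicate 4, miR-503-3p was at 138.6 normalized CPM (89 counts) against 124.3 to 125.1. Over the vehicle group its coefficient of variation, 5.42%, was below the 8.55% from counting error.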

How the results depend on the processing

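No member was called under any of the 15 alternative fits. Under the permutation settings, whose smallest p is 0.0286, a call after adjustment over 564 miRNAs was not possible unless most of them reached it, so they bear only on direction. Of 151 alternative log2 fold changes of members, 141 kept their direction, and the 10 that reversed belonged to 4 members. The permutation test reversed miR-542-3p (0.11) and miR-450a-5p (-0.012, and -0.0048 with a pseudocount of 5). Leaving out single libraries gave -0.13 to 0.028 for miR-322-3p, -0.043 to 0.083 for miR-351-5p, -0.82 to 0.32 for miR-542-3p and -0.14 to 0.21 for miR-450a-5p. The same fits moved the difference in 5p share, in percentage points, from -0.300 to 0.765 for miR-503, -0.451 to 0.447 for miR-542, 0.0139 to 0.0559 for miR-351 (exact permutation p = 0.0286 without IL-1β replicate 2) and -0.967 to -0.243 for miR-322. The cause of these reversals was not tested.

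Over all miRNAs, the 11 calls became 7 to 19 without single libraries (7 without vehicle replicate 2 or IL-1β replicate 1, 19 without IL-1β replicate 4), 18 with a surrogate variable and 19 with the replicate block. The replicate numbers did not pair the libraries: deviations of same-numbered libraries had r = 0.171, -0.345, 0.101 and -0.183 across 195 miRNAs, and 3 of the 8 libraries correlated best with their own number. With the block the members called remained 0. Depth limits miR-503-5p, miR-542-3p and miR-450b-5p.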
